A study of Mus musculus with 6 samples.

Results

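Toll-like receptors, the cytosolic NOD receptors and the inflammasome are the sensors by which cells detect microbial products and damage, and NF-kappaB is the transcription factor that most of them activate. The group described here holds 34 genes chosen by name from this pathway, and all 34 were found by symbol among the 17091 genes of the deposited table. They comprise 11 Toll-like receptor or co-receptor genes, 8 genes of adaptors and kinases beneath those receptors, 3 NOD receptor and kinase genes, 6 inflammasome and pyroptosis genes and 6 genes of NF-kappaB subunits and inhibitors. RNA was sequenced from the lateral wall of the cochlea in CBA/CaJ mice, an inbred strain, at 2 ages: 3 young mice of 2 months and 3 old mice of 2.5 years, with both cochleas of a mouse joined in 1 library. No treatment or transgene is named for either age. The sample labels name no sequencing run. Young replicate 1 and old replicate 2 carry the same sample number in their column names, so the libraries may not share 1 run. The part of sequencing run in the differences between ages was not tested. The lateral wall consists of the stria vascularis, which secretes potassium into the endolymph, and the spiral ligament under it, and it contains resident macrophages beside vessels. The question, as the study's title states it, is how transcripts of this tissue change with age.

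Toll-like receptors carry leucine-rich repeats that bind the ligand and an intracellular domain that recruits adaptors, MyD88 for most receptors and TRIF for TLR3 and TLR4. The adaptors engage IRAK kinases and TRAF6, and the signal ends in the release of NF-kappaB subunits from their inhibitors. Inflammasomes are assembled in the cytosol by a sensor, the adaptor ASC and caspase-1, which cleaves interleukin precursors and gasdermin D, the protein that forms pores in the cell membrane. Myeloid cells express many of these genes strongly, whereas the signalling kinases and NF-kappaB subunits are present in most cell types.

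The libraries held 37055355 to 39103398 recovered reads each. Members ranged from 11 reads in 1 library (Tlr9) upwards, so counting error is largest for Tlr9, Nlrp3, Tlr5, Casp4, Casp1, Nod2, Ticam2, Aim2 and Tlr1, each of which had 31 or fewer reads in its lowest library. Summed markers of marginal cells (281935 to 386582 normalised read counts), intermediate cells (183446 to 274615) and spiral ligament fibrocytes (465789 to 1205360) were high in all 6 libraries, as the lateral wall label states. The sums rested largely on few genes, such as Slc12a2, Dct and Coch. Single markers were low: Kcnq1ot1 of the marginal cells stood at 265 to 516, and Pmel and Tyrp1 of the intermediate cells at 32.5 to 71.1 and 0.97 to 24.9. One label field gives auditory nerve cells as the source instead, and the summed neuron markers stood at 384 to 714 in the young libraries and at 482, 4618 and 5343 in the 3 old ones. Xist, the RNA that coats the inactive X, was at 24382 to 29162 in 5 libraries and at 45.2 in old replicate 3, and the labels give no sex. Summed markers of neutrophils (393 to 594 in young mice) were at 5657, 925 and 10937 in old replicates 1, 2 and 3.

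Promoter sequence is shown for 5 members, picked with their changes known. Casp4, Tlr2 and Tnfaip3 rose and hold a kappaB motif. Nfkbia holds one and did not pass the test, and Tlr13 had the largest change of the group and holds none. Of the genes not shown, Nfkb2, Tlr3 and Tlr6 hold the motif and did not pass, and Tlr8, Nod2 and Casp1 rose and hold none. Each sequence is the 250 bases before the RefSeq transcription start (GRCm38.p6), written 5′ to 3′ on the strand of the gene, and capitals mark matches to the NF-kappaB (kappaB) motif, which is GGG, 3 bases of any kind and TTCC, on either strand.
Casp4, chr9:5308599-5308848, plus strand: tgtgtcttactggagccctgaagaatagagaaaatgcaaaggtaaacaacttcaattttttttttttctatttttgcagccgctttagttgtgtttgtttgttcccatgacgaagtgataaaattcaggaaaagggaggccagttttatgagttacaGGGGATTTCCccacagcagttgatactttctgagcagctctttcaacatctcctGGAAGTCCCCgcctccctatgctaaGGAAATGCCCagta
Tlr2, chr3:83841609-83841858, minus strand: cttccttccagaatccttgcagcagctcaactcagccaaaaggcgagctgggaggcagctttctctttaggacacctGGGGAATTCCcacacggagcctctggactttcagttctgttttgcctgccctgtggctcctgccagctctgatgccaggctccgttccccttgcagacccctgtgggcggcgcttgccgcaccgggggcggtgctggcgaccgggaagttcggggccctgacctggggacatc
Tnfaip3, chr10:19011964-19012213, minus strand: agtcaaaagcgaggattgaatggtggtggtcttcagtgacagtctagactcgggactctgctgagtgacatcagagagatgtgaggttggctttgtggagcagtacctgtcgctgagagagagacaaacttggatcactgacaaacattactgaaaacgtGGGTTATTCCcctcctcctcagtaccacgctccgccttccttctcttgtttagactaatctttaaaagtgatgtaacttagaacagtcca
Nfkbia, chr12:55492648-55492897, minus strand: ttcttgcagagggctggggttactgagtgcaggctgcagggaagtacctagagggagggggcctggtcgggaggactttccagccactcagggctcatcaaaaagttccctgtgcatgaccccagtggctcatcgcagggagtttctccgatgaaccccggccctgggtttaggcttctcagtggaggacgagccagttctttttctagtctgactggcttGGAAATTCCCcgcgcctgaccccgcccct
Tlr13, chrX:106143025-106143274, plus strand: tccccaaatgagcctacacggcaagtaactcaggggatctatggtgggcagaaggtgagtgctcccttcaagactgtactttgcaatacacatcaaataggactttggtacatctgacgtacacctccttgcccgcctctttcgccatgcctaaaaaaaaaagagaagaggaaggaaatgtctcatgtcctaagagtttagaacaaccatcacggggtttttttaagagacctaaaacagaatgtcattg
A RefSeq promoter was at hand for 26 of the 34 genes, and where a gene had several, the one nearest the principal GENCODE transcript start was taken. The kappaB motif occurred in 7 of the 26 (26.9%), namely Casp4, Nfkb2, Nfkbia, Tlr2, Tlr3, Tlr6 and Tnfaip3, and in 4.65% of all 32851 promoter windows of that length. In Casp4 there were 3 matches, which begin 93, 39 and 14 bases before the start. The motif GAGGAAGT of PU.1, a myeloid transcription factor, occurred in Aim2, Pycard and Tlr1 (11.5%, against 2.44% of all windows), but the Aim2 window lies 34750 bases from the principal transcript start, where those of the other 25 genes lie within 159. The interferon response motif, GAAA, 2 bases of any kind and GAAA, occurred in Myd88 (3.85%, against 2.98%). Both strands were searched for each motif, and no member held more than 1 of the 3 motifs. A match is a run of letters in this window, and neither binding nor a link to the changes with age was tested.

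In old lateral wall, 8 of the 34 genes rose and 1 fell (limma, threshold of 0.05 on p adjusted by Benjamini-Hochberg over 17091 genes). The risers were the receptors Tlr13, Tlr8, Tlr2 and Nod2, the caspases Casp4 and Casp1, the pore protein gene Gsdmd and the NF-kappaB inhibitor Tnfaip3, and the gene that fell was the adaptor Ticam1. Over all genes, 5.25% passed the test, 2.71% higher and 2.55% lower in old mice, whereas 23.5% of the members were higher. The members were chosen with earlier results of these data known, so these shares are a description. The median log2 fold change of the 34 members was 0.19, beside 0.00 over all genes, and 25 members had a positive and 9 a negative value. All old libraries lay above all young ones in 14 members and below them in 4, where the same held for 13.2% and 12.8% of all genes. The remaining 16 overlapped. The count of 8 higher genes was 4, 2 and 2 without young replicates 1, 2 and 3 and 5, 7 and 3 without old replicates 1, 2 and 3, and it was 3 with quantile normalisation or with limma without trend. Tlr8 and Tlr13 were called under every alternative run.

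The levels per kilobase of transcript placed the shared signalling genes far above most sensors. In young mice Nfkbia, the inhibitor that NF-kappaB itself induces, was highest with 2510 ± 244 normalised read counts per kb (SD, n = 3), followed by the kinase Irak1 with 1629 ± 116 and the NF-kappaB subunit Rela with 1284 ± 46.7. Tlr3 was the highest receptor with 716 ± 44.6 per kb, above Tlr4 with 346 ± 38.6. At the other end, Nlrp3, Nod2, Tlr9 and Ticam2 had 5.64 ± 1.501, 6.02 ± 0.883, 6.62 ± 2.98 and 7.73 ± 2.18 per kb, and these 4 neighbours lay within the spread of their libraries. Among the genes of the cell surface, Tlr4 was followed in young mice by the co-receptor gene Ly96 (108 ± 17.0) and Tlr2 (100.4 ± 9.52), which lay within their spread of each other, and then by Tlr6 (40.4 ± 5.67), Tlr1 (14.5 ± 2.84) and Tlr5, the flagellin receptor gene (8.42 ± 1.36). The lengths are those of principal GENCODE M21 transcripts, and the order is a description without a test.

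**Figure D1:**
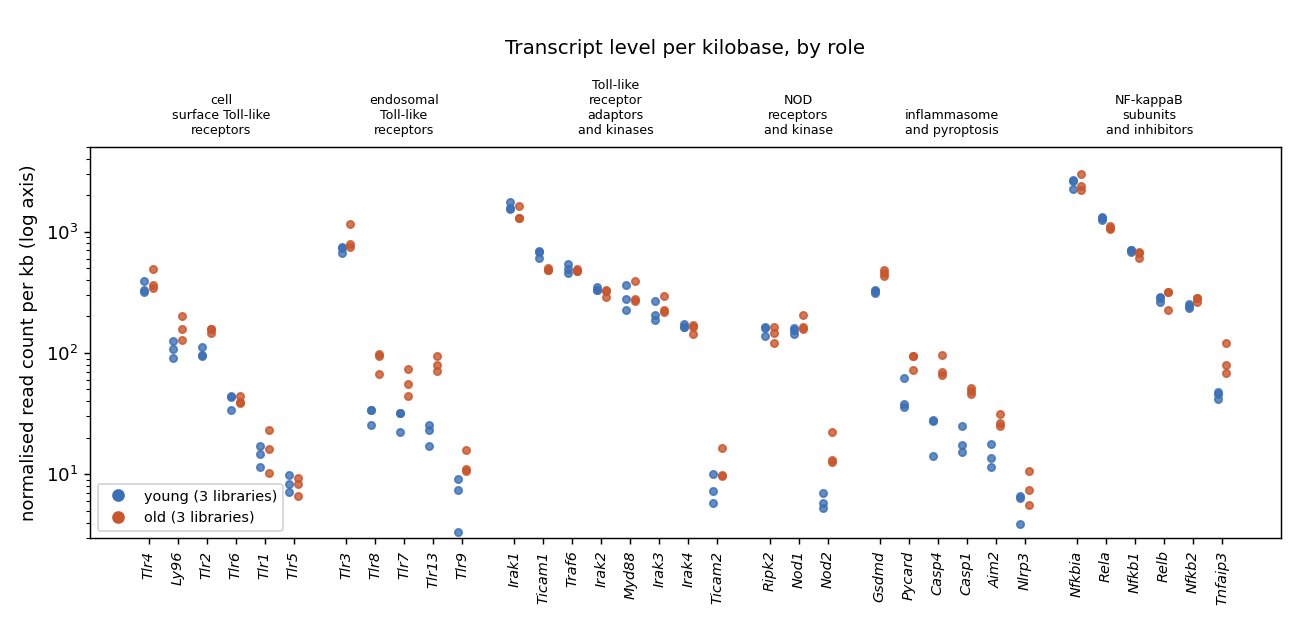
Normalised read count per kilobase (log axis) of each of the 34 genes in the 3 young (blue) and 3 old (orange) libraries, grouped by role and ordered by the young mean. Nfkbia, Irak1 and Rela lie highest, with young means of 2510, 1629 and 1284 per kb, and Nod2, Nlrp3, Tlr9, Ticam2 and Tlr5 lie lowest, with young means of 5.64 to 8.42 per kb.

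Among endosomal receptors, which sample nucleic acids taken up by the cell, Tlr13 and Tlr8 rose. Tlr13, a receptor for bacterial ribosomal RNA, had 104, 94.4 and 69.4 normalised read counts in young replicates 1, 2 and 3 and 324, 287 and 386 in old replicates 1, 2 and 3. Tlr8, a relative of the RNA sensor TLR7, had 112, 112 and 83.7 in the young and 325, 222 and 312 in the old libraries. In both genes every old library exceeded every young one, with old replicate 2 the lowest of the old. Taken as old less young after log2(value + 1), the log2 fold changes came to 1.90 ± 0.22 for Tlr13 and 1.46 ± 0.22 for Tlr8 (SE, limma adjusted p = 0.00277 and 0.00895), which correspond to 3.73-fold and 2.79-fold higher means. Tlr13, Tlr8, Tlr7 and Irak1 lie on the X chromosome, and old replicate 3 was the library with little Xist. Without that library the log2 fold changes of Tlr13 and Tlr8 were 1.78 and 1.39 (limma adjusted p = 0.0123 and 0.0308).

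The other endosomal receptors had positive differences that did not pass the threshold. Tlr7, which senses single-stranded RNA, had 122, 120 and 84.7 in young and 278, 165 and 208 in old libraries, with all old above all young and a log2 fold change of 0.98 ± 0.25 (limma adjusted p = 0.0609). It passed without old replicate 2 (0.0318) and by DESeq2 on the recovered reads (0.00675). Tlr9, the sensor of unmethylated CpG DNA, stood at 11.5, 25.9 and 31.7 against 38.8, 36.9 and 54.8 (0.98 ± 0.42, adjusted p = 0.221). Tlr3, which binds double-stranded RNA, stood at 2730 to 3082 in young mice and at 4772, 3060 and 3222 in old replicates 1, 2 and 3 (0.30 ± 0.16, adjusted p = 0.328). The groups of Tlr3 overlapped, and old replicate 1 alone stood apart. Unc93b1, the chaperone that carries these receptors to endosomes, stood at 1024 to 1103 and 1310 to 1466 (0.37 ± 0.10, adjusted p = 0.0764).

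At the cell surface Tlr2 alone rose among 6 genes. Tlr2, which pairs with TLR1 or TLR6 to bind bacterial lipoproteins, had 336, 287 and 285 normalised read counts in young and 479, 439 and 478 in old libraries, a log2 fold change of 0.62 ± 0.15 (limma adjusted p = 0.0432). Its groups were apart, and the spread within each was small. Leaving out any 1 library ended the call (adjusted p from 0.0527 to 0.195). Tlr4, the receptor for lipopolysaccharide, had 1346, 1592 and 1299 in young and 1994, 1481 and 1404 in old libraries (0.19, 95% interval −0.15 to 0.53). Ly96, whose protein MD-2 holds the lipopolysaccharide on TLR4, had 78.7, 68.5 and 57.2 against 80.5, 128 and 99.0 (0.57, −0.02 to 1.16), the highest 3 values being the old ones. Tlr1, Tlr5 and Tlr6 had 0.13 (−0.67 to 0.93), −0.06 (−0.80 to 0.68) and 0.02 (−0.43 to 0.47), with overlapping groups. With quantile normalisation Tlr1 and Tlr6 were on the other side of 0, at −0.12 and −0.11. Tlr1 and Tlr6 are neighbouring paralogues: 15.4% of the 50-base words in Tlr1 transcripts also occur in another gene, mostly Tlr6, and 12.3% of those of Tlr6, so some of their reads are uncertain.

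**Figure D2:**
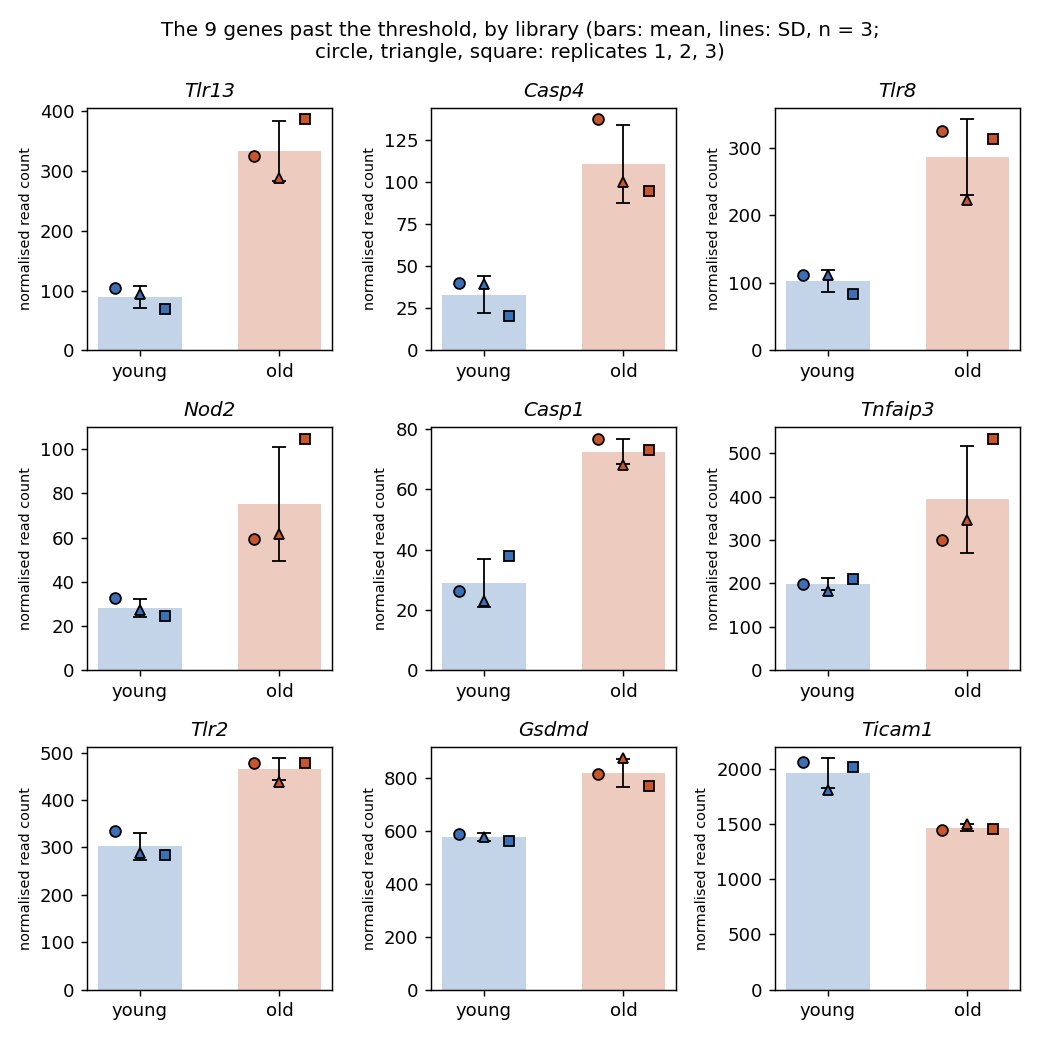
Normalised read counts of the 9 genes that passed the threshold, in young (blue) and old (orange) libraries. Bars are means and lines SD (n = 3), and each point is 1 library. In all 9 panels the young and old points do not overlap. Ticam1 is the one gene in which the old points, 1443 to 1499, are the lower.

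Of the 8 genes of adaptors and kinases beneath the Toll-like receptors, Ticam1 alone passed the test. Ticam1, which encodes TRIF, the adaptor of TLR3 and TLR4, fell from 2058, 1811 and 2017 normalised read counts to 1443, 1499 and 1458, a log2 fold change of −0.42 ± 0.10 (limma adjusted p = 0.0439). The old values lay close together and below all young ones. The call was lost when any 1 library was left out (adjusted p from 0.056 to 0.202). Myd88, the adaptor of most Toll-like receptors, stood at 444, 717 and 549 in young and 766, 548 and 529 in old libraries (0.12, −0.36 to 0.59), with overlapping groups and its highest value in old replicate 1. Irak1 had the highest level per kb of this role and stood at 4930 to 5604 and 4123 to 5169 (−0.22, −0.48 to 0.04). Ticam2, which bridges TLR4 to TRIF, had the lowest, at 24.5 to 42.5 and 40.7 to 69.2 (0.61, −0.17 to 1.39), and 14.6% of its 50-base words occur in other genes, mostly in Tmed7, which overlaps it. Irak2, Irak4 and the ubiquitin ligase gene Traf6 had log2 fold changes of −0.10, −0.07 and −0.05, and Irak3, which encodes an inactive kinase that restrains the pathway, had 0.17. Of these 8 genes 0 rose and 1 fell, and 1 had an unadjusted p under 0.05 (limma). DESeq2 and edgeR on the recovered reads also called Ticam1 alone among them.

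Of the NOD receptors, which detect fragments of bacterial peptidoglycan in the cytosol, Nod2 rose. Nod2 had 32.5, 27.0 and 24.5 normalised read counts in young and 59.1, 61.5 and 104.7 in old libraries, so each old value was above each young one and old replicate 3 was highest. The log2 fold change was 1.35 ± 0.32 (limma adjusted p = 0.0442). The call was lost without young replicates 1, 2 or 3 (adjusted p = 0.0768, 0.138 and 0.175) or without old replicate 3 (0.102). Nod1, which detects another peptidoglycan fragment, stood at 597 to 673 and 656 to 855 (0.18, −0.13 to 0.50). Ripk2, the kinase that both receptors recruit, stood at 370 to 439 and 328 to 441 (−0.10, −0.47 to 0.26).

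All 6 inflammasome and pyroptosis genes had higher means in old mice, and 3 passed the test. Casp4, the mouse caspase that binds lipopolysaccharide inside cells, had 39.9, 39.4 and 20.4 normalised read counts in young and 137.7, 100.2 and 95.1 in old libraries. Casp1, the caspase of canonical inflammasomes, had 26.2, 22.8 and 37.8 against 76.6, 68.1 and 73.0. Gsdmd, whose protein both caspases cleave into a membrane pore, had 589, 578 and 561 against 812, 873 and 768. None of these groups overlapped. The log2 fold changes were 1.75 ± 0.33 for Casp4, 1.33 ± 0.29 for Casp1 and 0.50 ± 0.12 for Gsdmd (SE, limma adjusted p = 0.0198, 0.0346 and 0.0428). The Casp4 call was lost without young replicate 2 or 3 (adjusted p = 0.0517 and 0.0754), and those of Casp1 (0.0507 to 0.131) and Gsdmd (0.0582 to 0.189) when any 1 library was left out.

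Pycard, which encodes the adaptor ASC, had 236, 145 and 136 normalised read counts in young and 357, 275 and 355 in old libraries, with no overlap and a log2 fold change of 0.96 ± 0.24 (limma adjusted p = 0.053). It passed without young replicate 1 (0.0253) or old replicate 2 (0.0403) and by DESeq2 (0.00617). Aim2, the sensor of cytosolic DNA, had 28.3, 43.6 and 33.7 against 65.0, 61.5 and 77.8 (0.95 ± 0.28, adjusted p = 0.0948), again without overlap. Nlrp3, the sensor most often studied in sterile inflammation, had the lowest level per kb of the 34 genes in young mice, with 26.2, 15.6 and 25.5 against 22.3, 29.3 and 42.3. Its groups overlapped, and its log2 fold change of 0.45 had a 95% interval of −0.41 to 1.31. It rested on 15 to 44 recovered reads a library.

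No NF-kappaB subunit gene passed the test, while the inhibitor gene Tnfaip3 rose. Tnfaip3, a ubiquitin-editing enzyme that ends NF-kappaB signalling, had 199, 183 and 210 normalised read counts in young and 301, 347 and 533 in old libraries (log2 fold change 0.95 ± 0.22, limma adjusted p = 0.0435). Every old library exceeded every young one, and old replicate 3 was highest. The call was lost without young replicates 1, 2 or 3 (adjusted p = 0.0972, 0.144 and 0.135) or old replicate 3 (0.0749). Nfkbia, the inhibitor with the kappaB match beside its start in the sequence shown above, had 4213, 4153 and 3518 against 3511, 3743 and 4715 (0.00, −0.29 to 0.30). Nfkb1, the subunit made as a long precursor, had 2440, 2518 and 2510 against 2360, 2177 and 2419 (−0.10, −0.31 to 0.10). Rela, the main activating subunit, stood at 3357 to 3610 and 2873 to 3042, with all old values below the young. Its log2 fold change was −0.24 ± 0.09 (95% interval −0.44 to −0.05, limma adjusted p = 0.152). Nfkb2 and Relb, subunits of the non-canonical branch, had 0.19 (−0.07 to 0.44) and 0.04 (−0.32 to 0.41).

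**Figure D3:**
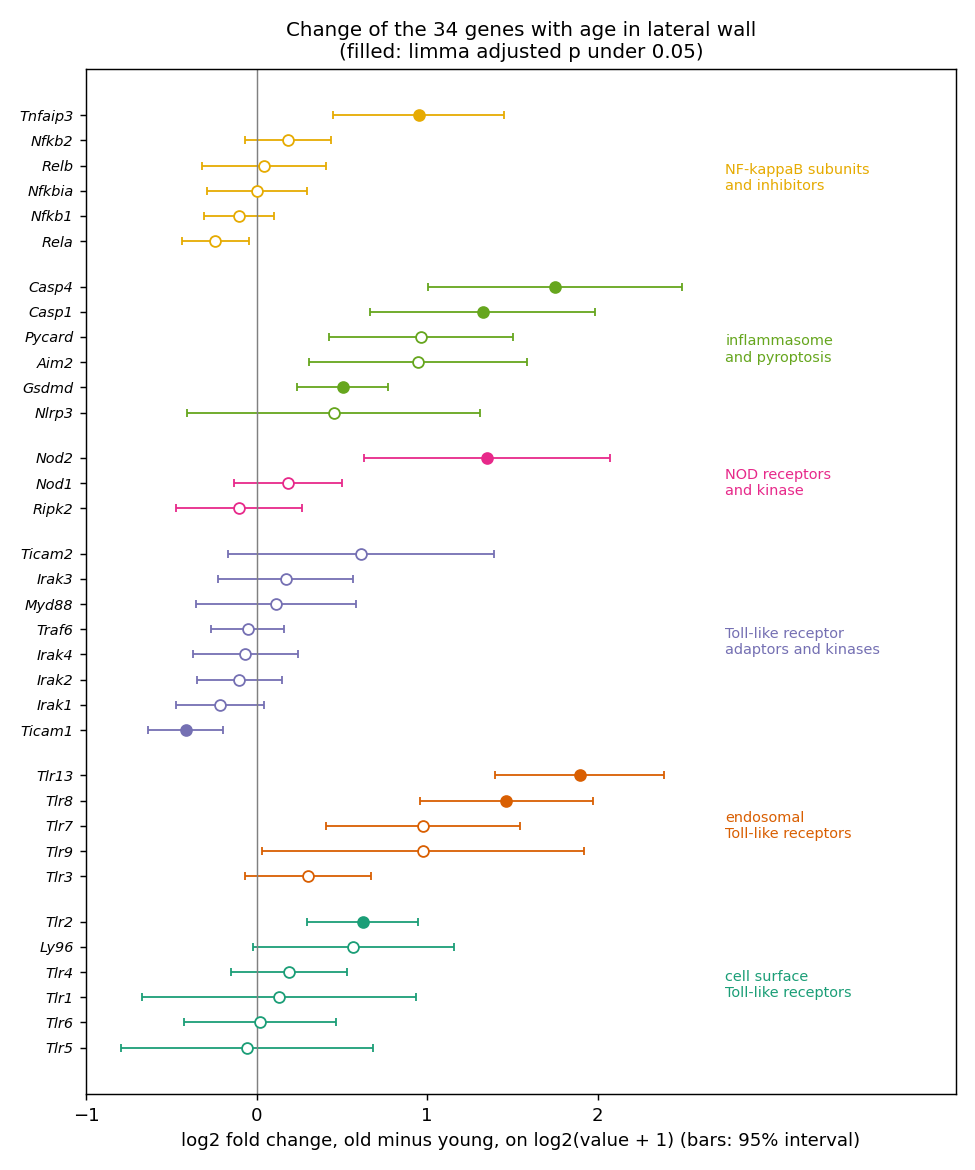
Log2 fold change (old less young, from log2(value + 1)) of the 34 genes with 95% intervals from limma, grouped by role. Filled points passed the threshold. Receptors of the endosome and inflammasome genes lie to the right of 0, with Tlr13 (1.90) and Casp4 (1.75) farthest, and most adaptors, kinases and NF-kappaB subunits lie near 0.

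The 3 old libraries did not contribute alike. The median difference of the 34 genes from the young mean was 0.41 in old replicate 1, 0.20 in old replicate 2 and 0.20 in old replicate 3, where the same median over all genes was 0.01, 0.01 and 0.00. Of the 34 genes, 13 had their highest value in old replicate 1, 9 in old replicate 3, 4 in old replicate 2 and 8 in a young library. Tlr3, Tlr4, Myd88 and Irak3 were 0.70, 0.50, 0.45 and 0.44 above the young mean in old replicate 1 and between −0.08 and 0.14 in the other old libraries. In young replicate 2, Myd88 and Irak3 stood at 717 and 829 normalised read counts, beside 766 and 909 in old replicate 1. Irf7, an interferon-induced transcription factor beneath TLR7 and TLR9, moved with that library: it had 5902 normalised read counts in old replicate 1, 1227 and 1263 in the other old libraries and 658 to 731 in young mice (named after its values were seen). Nod2, Tnfaip3, Nlrp3, Ticam2 and Tlr9 were highest in old replicate 3, by 1.88, 1.43, 0.92, 1.10 and 1.33 over the young mean. Old replicate 3 also had the highest sum of every marker list plotted by library except those of B cells, marginal cells and spiral ligament fibrocytes, and the lowest sum of the fibrocyte list. The part of these other differences in the results was not tested.

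**Figure D4:**
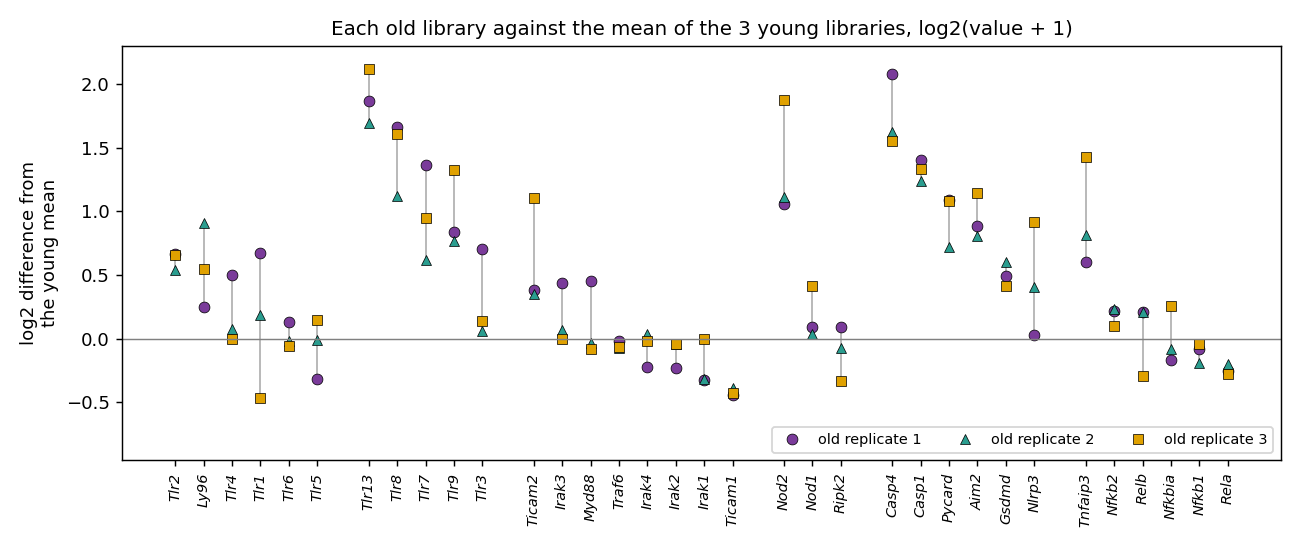
Difference of each old library from the mean of the 3 young libraries on log2(value + 1), for the 34 genes grouped by role. Tlr13, Tlr8, Casp4 and Casp1 are high in all 3 old libraries, whereas Tlr3, Tlr4, Myd88 and Irak3 are raised in old replicate 1 and near 0 in the other old libraries.

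Some macrophage markers were higher in old mice as well. Of 12 macrophage markers 6 rose and 0 fell, and their summed level was 12180 to 13151 normalised read counts in young and 25095 to 37203 in old mice, 2.33-fold higher on average. Most of that gain was Lyz2: without it the other 11 markers summed to 10615 to 11183 in young and 11520.5 to 15807 in old mice, 1.24-fold higher, a sum added after the values were seen. The markers differed among themselves: the lysozyme gene Lyz2 and the lysosomal marker Cd68 had log2 fold changes of 3.09 and 2.15, whereas Csf1r, the receptor on which macrophages depend, had 0.14 and the resident macrophage marker Mrc1 had −0.29. Mertk, a receptor for engulfing dead cells, had −0.59 ± 0.18 with all old libraries below all young ones (limma adjusted p = 0.0984), and DESeq2 called it lower (0.0393). Aif1 and Fcgr1 went the other way, at 0.99 ± 0.28 and 1.13 ± 0.38 (limma adjusted p = 0.0824 and 0.129). In both, all old libraries lay above all young ones, and DESeq2 called Aif1 higher (0.0272) but not Fcgr1 (0.0535). Mertk was the largest part of the sum of 11 markers at both ages, with means of 5801 in young and 3938 in old mice. Its lower old level therefore weighs on the ratio of 1.24. The risers other than Lyz2 were Cd68, Adgre1, Cx3cr1, Tyrobp and C1qa. In bulk tissue, more cells of a type and more RNA per cell cannot be told apart. All 12 neutrophil markers had positive differences (2.95 median log2 fold change). Of these 3 passed by limma, 10 by edgeR and 12 by DESeq2 on the recovered reads. The summed level of the 12 was 11.7, 1.91 and 22.6 times the young mean in old replicates 1, 2 and 3. Summed B cell markers (38.8 to 55.1 against 114 to 219) and T and NK cell markers (125 to 137 against 278 to 983) were higher in old mice too. Most of the T and NK cell sum was Cd4, at 108 to 124 in young and 195, 358 and 853 in old libraries. Ms4a1, Cd3d, Cd3g, Klrb1c and Nkg7 were at 0 in at least 1 young library, and Cd8a in old replicate 2. Summed dendritic cell markers stood at 331.8 to 343 and 345 to 386. Most of that sum was Zbtb46 and Siglech, which moved in opposite directions. Zbtb46 had means of 176 in young and 127 in old mice, and Siglech had 121 and 173. Flt3, a small part of the sum, had a log2 fold change of 2.14 ± 0.56 (limma adjusted p = 0.0621, DESeq2 adjusted p = 0.0157). Of the 7 dendritic cell markers 4 had positive and 3 negative differences, and 0 passed by limma. Spiral ligament fibrocyte markers summed, relative to the young mean, to 0.553, 0.880 and 0.414 in the 3 old libraries, all 6 had negative differences, and 1, Otos, fell (−1.71 ± 0.20, limma adjusted p = 0.00321). The part of these cell types in the differences of the 34 genes was not tested.

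**Figure D5:**
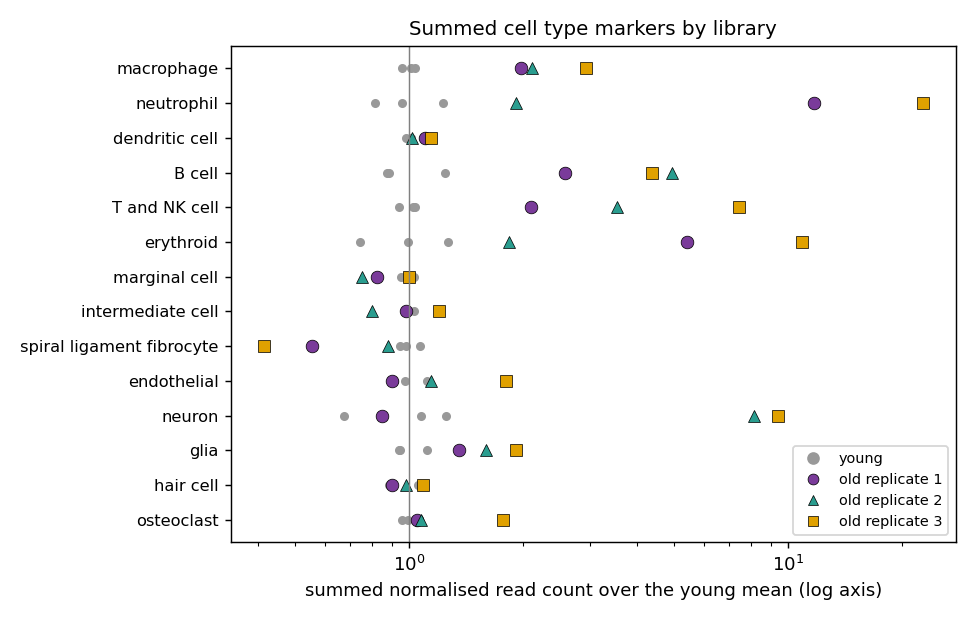
Summed normalised read counts of each marker list over the young mean (log axis), for young libraries (grey) and the 3 old libraries. Macrophage sums are 1.97, 2.11 and 2.92 times the young mean in the 3 old libraries, and 1.19, 1.06 and 1.46 times without Lyz2 (not drawn). Neutrophil sums range from 1.91 to 22.6 times, and spiral ligament fibrocyte sums from 0.414 to 0.880 times.

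Of 102 other genes of the pathway found in the table, 13 rose and 1 fell, a share of 13.7% beside 5.25% of all genes, and their median log2 fold change was 0.30. This list too was chosen with earlier results of these data known. Among receptor partners and chaperones 4 of 9 rose and 1 fell. Cd36, a scavenger receptor that cooperates with TLR2, had 45.1, 67.4 and 35.7 normalised read counts in young and 184, 214 and 262 in old libraries (2.17 ± 0.28, limma adjusted p = 0.00436). Ly86, whose protein MD-1 partners the TLR4 relative CD180, had a log2 fold change of 1.08 ± 0.20 (adjusted p = 0.0186), a call lost without young replicate 2 or 3 (0.081 and 0.0927). Cd14, which hands lipopolysaccharide to TLR4, also rose (1.05 ± 0.23, adjusted p = 0.0385, named after its value was seen), a call that remained without old replicate 1 (0.0172) and was lost without each of the other 5 libraries (0.0688 to 0.130). The gene that fell was Lbp, the secreted protein that brings lipopolysaccharide to CD14, with 5526, 8053 and 6731 against 3115, 3162 and 2145 (−1.27 ± 0.18, adjusted p = 0.00779). Among 14 transcription factors and other inhibitors 1 rose, Irf5, which acts beneath MyD88, with 81.8, 65.3 and 55.1 against 191, 173 and 239 (1.57 ± 0.24, adjusted p = 0.0087). Of 11 downstream kinases and of 10 adaptor-level partners 0 passed the test by limma, with 1 and 3 at an unadjusted p under 0.05. edgeR called 0 of either list, and DESeq2 called 0 of the kinases and 2 of the adaptor-level partners, Tollip and Sigirr (named after their values were seen).

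Of 25 other inflammasome genes 4 rose and 0 fell. Naip2, a sensor that pairs bacterial secretion proteins with NLRC4, had 32.5, 45.6 and 29.6 normalised read counts in young and 357, 198 and 334 in old libraries (2.99 ± 0.29, limma adjusted p = 0.0016). Naip5 and Naip6, sensors of flagellin, had 1.77 ± 0.32 and 1.20 ± 0.25 (adjusted p = 0.0182 and 0.0285). These paralogues share 19.1%, 36.8% and 21.5% of their 50-base words with other genes, so reads of Naip2, Naip5 and Naip6 are uncertain between copies. The Naip5 call was lost without young replicates 2 or 3 or old replicate 3 (0.0671, 0.083 and 0.054) and that of Naip6 in 5 of 6 runs without 1 library, all but that without old replicate 2 (0.0642 to 0.109). Of the inflammasome products, named after their values were seen, Il1b had 13.6, 9.33 and 14.3 against 28.1, 50.1 and 23.1 (1.32 ± 0.41, adjusted p = 0.104). Il18 stood at 314 to 403 and 295 to 396 (−0.04 ± 0.17).

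Of 25 target genes of NF-kappaB 4 rose and 0 fell. Cxcl1, a chemokine for neutrophils, had 1.05, 2.07 and 2.04 normalised read counts in young and 41.7, 38.8 and 30.7 in old libraries, so its young values rest on 1 or 2 reads each (3.82 ± 0.44, limma adjusted p = 0.00267). Ccl5, a chemokine for T cells, had 25.2, 33.2 and 13.3 against 170, 134 and 132 (2.64 ± 0.35, adjusted p = 0.00492). Bcl2a1b, a survival gene of leukocytes, had 2.37 ± 0.31 (adjusted p = 0.00455), and 79.2% of its 50-base words occur in its copies, so its value is uncertain. Tnf and Il6, the cytokines by which this pathway is often read, were near the limit of detection, at 2.04 to 6.29 against 8.65 to 13.6 and at 1.04 to 3.06 against 1.89 to 2.91 normalised read counts (named after their values were seen). Tnf had a log2 fold change of 1.42 ± 0.53 (adjusted p = 0.163).

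In GRCm38 (mm10), as GENCODE M21 annotates them, Tlr13 lies on chromosome X from 106143204 to 106160493, Tlr8 on X from 167242696 to 167264329 and its neighbour Tlr7 on X from 167304929 to 167330558. Tlr2 lies on chromosome 3 from 83836272 to 83841767, Nod2 on chromosome 8 from 88647315 to 88688474 and Ticam1 on chromosome 17 from 56269319 to 56276786. Casp1 and Casp4 are neighbours on chromosome 9, from 5298517 to 5307265 and from 5308828 to 5336783. Gsdmd lies on chromosome 15 from 75862327 to 75867408 and Tnfaip3 on chromosome 10 from 19000910 to 19015657. All are protein-coding genes, and each value is a count over a gene. None of these 10 overlaps an exon of a gene on the opposite strand, whereas Tlr3, Irak2, Irak3, Irak4, Pycard and Nfkb2 do, so a part of their reads is uncertain because strand is not stated.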

How the data were processed

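Bulk RNA of the lateral walls of 6 mice was sequenced, with 2 cochleas in each library, per the labels' protocols, after purification with the miRNeasy Mini Kit and TruSeq library preparation. The submitters' processing notes list Partek, TopHat2, DESeq2 and mm10, with neither version nor role. Annotation and strandedness: not given in the sources used here. Values as deposited are a signal, a read count divided by a size factor of the library: values were whole multiples of 1 step per library (0.946 to 1.05), and 99.9% of them gave a number within 0.1 of a whole count. Those reads gave totals of 37055355 to 39103398, and counting error alone is covered by them. The authors' deposited p-value, adjusted p-value (missing for 332 genes) and signed fold change, a score that is negative where old is lower, served as an alternative.

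The plan named limma for normalised values. Old and young were compared with limma 3.58.1 (R 4.3.3, trend and robust) on log2(value + 1) over 17091 genes without a filter on low values, with Benjamini-Hochberg adjustment and a threshold of 0.05. This scale understates changes of low genes. The same steps were tested on simulated data. Each library is a separate mouse, and with 3 against 3 the smallest p of an exact permutation test is 0.1, and no such test was made. The members and lists were chosen with earlier results of these data known. Named are all members, and of the other pathway genes the 3 with the smallest p per list among those past the threshold. As alternatives, values were quantile normalised, the trend and robust steps were dropped, genes with a mean under 10 were removed, the pseudocount was set to 0.1 or 10, and the comparison was repeated with edgeR 4.0.16 and DESeq2 1.42.0 on recovered reads, with a replicate block, without each library in turn and with the deposited p-values. Transcripts and positions came from GENCODE M21 and promoters from RefSeq (GRCm38.p6).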

Additional observations from a re-analysis of the deposited data

How the results depend on the processing

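Signs of the 34 genes held under the alternatives but for Tlr1 and Tlr6, at −0.12 and −0.11 with quantile normalisation, and 9 uncalled genes whose log2 fold changes crossed 0 when 1 library was left out: Irak4 −0.12 to 0.011, Myd88 −0.054 to 0.29, Nfkbia −0.12 to 0.089, Relb −0.041 to 0.21, Ripk2 −0.20 to 0.0097, Tlr1 −0.14 to 0.43, Tlr5 −0.17 to 0.069, Tlr6 −0.10 to 0.085, Traf6 −0.11 to 0.0027. The 8 higher and 1 lower members became 3 and 0 with quantile normalisation and 3 and 0 with limma without trend. Without 1 library they ranged from 2 to 7 higher, and 0 were lower in each run. edgeR on recovered reads called the same 9, and DESeq2 and the authors' deposited table called these 9 and Tlr7 and Pycard. A mean of at least 10 and pseudocounts of 0.1 and 10 kept the 9 calls. The 13 higher pathway genes became 7 with limma without trend, which called 0 lower, and 6 to 14 without 1 library, with 1 to 2 lower. Over all genes, 463 higher and 435 lower became 208 and 129 with limma without trend, 976 and 843 with DESeq2, 975 and 843 in the deposited table, and 139 to 554 and 91 to 580 without 1 library. The replicate block gave 230 and 176 over all genes and 3 and 0 among the members. Deviations of same-numbered libraries correlated at −0.24, −0.10 and −0.09 over 13308 genes, and those of unlike-numbered libraries at −0.15 to 0.23. With 3 libraries an age, these correlations cannot decide whether the numbers pair the animals. The cause of these shifts was not tested. Leaving Lyz2 out of the macrophage marker sum, an alternative chosen after seeing the data, moved its ratio of old over young from 2.33 to 1.24. The largest part of the remaining sum was Mertk, whose mean was lower in old mice. Genes under about 50 reads are limited by depth.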

Other observations

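Besides Aim2, which did not pass the test, the cytosolic sensing of nucleic acids was represented by 8 genes. Of these, 0 passed by limma, 0 passed by edgeR or DESeq2 and 0 had an unadjusted p under 0.05, although all 8 had a positive difference (median log2 fold change 0.37). The RNA sensor genes Ddx58 and Ifih1 had 5922 and 3259 normalised read counts in old replicate 1, beside 2799 and 1462 in old replicate 2, 2818 and 1437 in old replicate 3 and at most 2567 and 1307 in young mice. The DNA sensing genes Mb21d1 and Tmem173, which encode cGAS and STING, had log2 fold changes of 0.07 ± 0.33 and 0.02 ± 0.22 (SE). The genes of this paragraph were named after their values were seen.

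Tollip and Sigirr, brakes on Toll-like receptor signalling, were higher in every old than in every young library without passing the threshold in the main limma comparison. Tollip stood at 6063 to 6186 normalised read counts in young and at 7320, 8415 and 9854 in old mice (0.46 ± 0.12, limma adjusted p = 0.0546), and Sigirr at 279 to 289 and 360 to 467 (0.54 ± 0.16, adjusted p = 0.085). Both passed by DESeq2 on the recovered reads (adjusted p = 0.00739 and 0.0186) and neither by edgeR (0.0551 and 0.0773). With quantile normalisation Tollip passed and Sigirr did not (limma adjusted p = 0.0368 and 0.116). Without 1 library, Tollip passed in 1 run and Sigirr in 0.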
